A study of Homo sapiens with 12 samples.

Results

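The enzymes described here oxidize drugs, steroids and lipids or attach polar groups to them: cytochrome P450s, the UGT1 and UGT2 glucuronosyltransferases, glutathione transferases, sulfotransferases and carboxylesterases. They were taken by gene symbol from the deposited gene tables, leaving out CYP1A1, CYP1B1 and CYP51A1, which belong to the aryl hydrocarbon and cholesterol pathways. The rule found 110 of 20114 gene rows, of which 39 had 10 or more counts in at least 2 RNA libraries and could be tested. RNA was sequenced from Caki-1, a human kidney cancer cell line in long use, and from a derivative resistant to cabozantinib, an inhibitor of MET, AXL and VEGF receptor kinases. The parental cells, called wild-type by the submitters, carry no stated drug exposure and were kept in RPMI 1640. Resistance was raised in McCoy's 5A medium over 2 months, from 5 µM to 20 µM cabozantinib, and the cells were then held in 10 µM, so drug, medium and selection cannot be told apart. There were 2 RNA libraries per line, and the labels describe a single derivation of the resistant line. Nothing states that the libraries of a line are separate cultures, and p-values therefore measure the spread between these libraries alone, which may be technical.

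P450s are heme enzymes that insert oxygen into their substrates with electrons from POR in the endoplasmic reticulum or from ferredoxin in mitochondria. Transferases then add glucuronic acid, glutathione or sulfate, which usually makes a compound easier to excrete, and carboxylesterases split esters and amides. The proximal tubule, from which most renal cell carcinomas are thought to arise, normally carries many of these enzymes. The UGT1A enzymes come from 1 locus in which alternative first exons, each with its own promoter, are joined to the same downstream exons. Reads from those common exons cannot be tied to 1 member, so the single UGT1A values are uncertain.

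Between the lines, UGT1A1 rose while UGT1A6, from the same locus, was lower in both resistant libraries without passing the test, and in the mu-class glutathione transferase cluster GSTM4 rose while GSTM3 fell. The promoters of these 4 genes are shown for reference, since the genes are compared with their neighbours below. Those comparisons use levels per gene, which do not measure the use of a start. Each is the 250 bases before an annotated start, 5′ to 3′ on the gene's strand, from RefSeq (GRCh38.p14). For each gene the start nearest its outer 5′ end was taken, which need not be that of the main transcript. They lie at chr2:233760020-233760269 and chr2:233691452-233691701 on the plus strand for UGT1A1 and UGT1A6, at chr1:109655849-109656098 on the plus strand for GSTM4 and at chr1:109741039-109741288 on the minus strand for GSTM3. Capitals mark matches, on either strand, to the motifs searched.
UGT1A1: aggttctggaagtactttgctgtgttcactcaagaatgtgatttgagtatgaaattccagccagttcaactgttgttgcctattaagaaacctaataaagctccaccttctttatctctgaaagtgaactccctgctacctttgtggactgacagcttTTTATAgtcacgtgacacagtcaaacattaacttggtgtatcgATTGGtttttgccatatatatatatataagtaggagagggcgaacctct
UGT1A6: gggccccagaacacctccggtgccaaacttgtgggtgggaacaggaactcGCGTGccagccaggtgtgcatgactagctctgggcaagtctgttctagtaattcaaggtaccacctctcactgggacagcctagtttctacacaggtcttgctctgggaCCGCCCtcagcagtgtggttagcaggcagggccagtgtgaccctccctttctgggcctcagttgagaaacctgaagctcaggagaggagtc
GSTM4: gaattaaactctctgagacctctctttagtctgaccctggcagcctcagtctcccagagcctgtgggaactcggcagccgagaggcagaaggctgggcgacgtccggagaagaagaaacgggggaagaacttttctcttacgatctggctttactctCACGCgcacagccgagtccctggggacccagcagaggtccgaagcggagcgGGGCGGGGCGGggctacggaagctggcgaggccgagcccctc
GSTM3: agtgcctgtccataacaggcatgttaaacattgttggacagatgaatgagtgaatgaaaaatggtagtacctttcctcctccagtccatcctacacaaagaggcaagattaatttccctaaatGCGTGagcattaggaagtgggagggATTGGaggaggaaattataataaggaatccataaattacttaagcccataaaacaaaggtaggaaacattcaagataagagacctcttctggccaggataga

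The motifs were the TATA box (TATAAA), the CCAAT box (CCAAT), the GC box (GGGCGG), the xenobiotic response element core (GCGTG) and the antioxidant response element core (TGACNNNGC), with N for any base, besides an HNF1 core. They were searched on both strands. The UGT1A1 window held a TATAAA match on the opposite strand, 92 bases before the start, and a CCAAT match. Only the exact letters TATAAA were searched, so the TA repeat nearer the start of UGT1A1, which ends in TATAAG, was left unmarked. The UGT1A6 window held a GC box and a GCGTG match. GSTM4 held 2 overlapping GC boxes and a GCGTG match, and GSTM3 held a GCGTG and a CCAAT match. The base composition differed as well, with 38.8% G and C for UGT1A1, 57.6% for UGT1A6, 62.4% for GSTM4 and 40.0% for GSTM3. Among all 35116 windows of this length in the table, 10.7% held the TATA box, 32.0% the CCAAT box, 42.6% the GC box, 32.2% GCGTG and 10.9% TGACNNNGC. These shares count every window, so a gene with several starts can enter several times, while each member below has 1 window. A window was given for 81 members and 31 of the tested ones. TGACNNNGC was present in 6 of these 31, GCGTG in 10, the TATA box in 5, the CCAAT box in 13, the GC box in 17 and the HNF1 core, which 0.290% of all windows held, in 0. Of the members that rose, SULT1C2 was the 1 with TGACNNNGC. A match is only a description of these letters.

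The RNA libraries held between 10584083 and 14664723 estimated counts. The 2 resistant libraries differed from each other far more than the 2 parental ones (48.2 against 1.94 per gene in a chi-square statistic scaled to 1 for sampling noise). Of the renal markers checked, PAX8 stood at a mean of 208 TPM in the parental and 133 TPM in the resistant line, while PAX2 and LRP2 had 0 counts in all 4 libraries. Of 11 tested renal markers 2 rose, 1 fell and 8 did not pass, where 6.4% of all genes were called by the test described below. The kidney cadherin CDH16 rose (log2 fold change 1.51, adjusted p = 0.0454, or 0.199 without parental replicate 1), as did ANPEP. The cadherin CDH2 fell (-0.93, adjusted p = 0.0445, or 0.243 and 0.267 without parental replicate 1 and 2 and 0.0642 with library totals). Of 24 markers of blood, endothelial, stromal and liver cells in the table, 5 had 0 counts throughout, among them CD3E, CDH5 and APOB, and PTPRC had at most 1 count in a library. Their summed level was 227 to 228 CPM in the parental and 149 to 165 CPM in the resistant libraries. CD68 alone had means of 86.6 and 42.7 CPM. Of the 9 tested, the stromal genes DCN and RGS5, with LUM and CD68, were the 4 that fell. SERPINA1, a liver-type protease inhibitor, was the 1 that rose. The other 4 did not pass: COL1A1 (log2 fold change -1.15), PDGFRB (-0.28), ACTA2 (0.16) and ALB (1.79). Of all genes 6.4% were called in either direction. The part of these markers in the results below was not tested. In bulk RNA, fewer cells that express a gene and less RNA per cell cannot be told apart.

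TPM, the deposited level scaled for transcript length and library size, is used for levels compared between genes. By mean TPM, 36 members were above 1, 19 above 10 and 6 above 100. The pi-class glutathione transferase GSTP1 led with 1607, 1599, 1491 and 1769 TPM in parental replicates 1 and 2 and resistant replicates 1 and 2, the same order of libraries being used in all lists of values here. It ranked 108 among all rows and made up 41.4% to 48.5% of all glutathione transferase TPM. The microsomal transferases MGST1 and MGST3 followed, at means of 709 and 568 TPM, and then GSTO1, UGT1A6 and GSTK1 at 230.2, 174 and 173 TPM. The P450s were scarce by comparison. All 52 of them together summed to 42.7, 42.9, 48.4 and 36.2 TPM, with overlapping lines, against 3317, 3348, 3601 and 3648 TPM for the 21 glutathione transferases, which were higher in both resistant libraries by TPM but overlapped by CPM. The most abundant P450 was CYP2R1, a vitamin D hydroxylase, at 11.4, 8.69, 9.75 and 8.93 TPM.

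**Figure D1:**
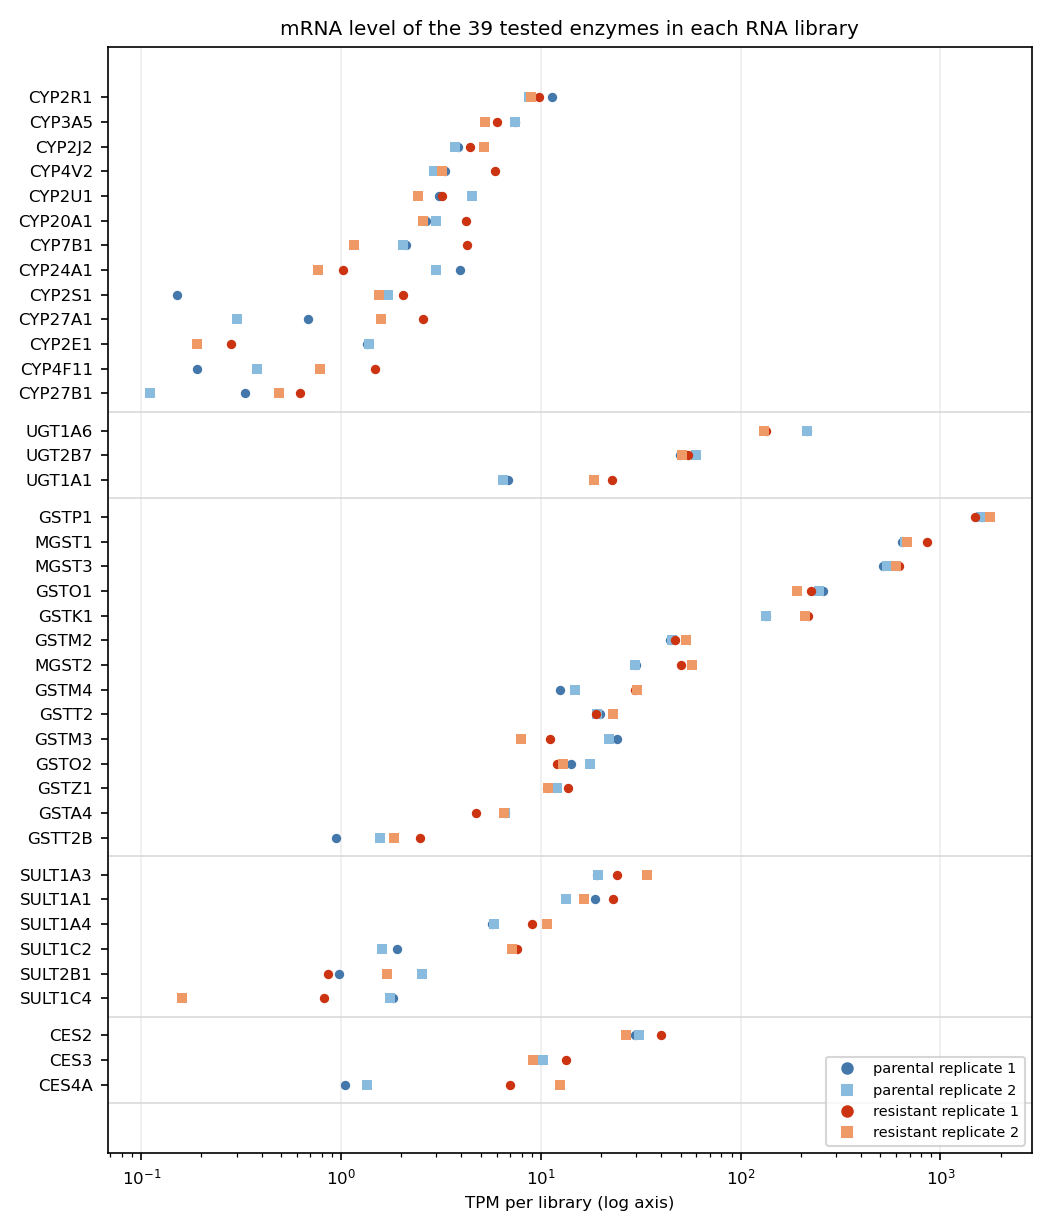
TPM of each tested member in each of the 4 RNA libraries, on a log axis, with 1 row per gene and members sorted by mean level within their family. GSTP1 lies at 1491 TPM or higher in every library, while all P450s lie under 12 TPM.

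Against this background, the quasi-likelihood test of edgeR, with p-values adjusted by Benjamini-Hochberg over all 12892 genes tested, called 5 members higher and 3 lower in the resistant line at an adjusted p under 0.05, and 31 did not pass. The members that rose were UGT1A1, SULT1C2, CES4A, GSTM4 and GSTK1, and those that fell were GSTM3, CYP24A1 and CYP2E1. Over all genes 2.96% were called higher and 3.44% lower, 6.4% in either direction. That was 382 genes higher and 443 lower, a split that turned to 532 and 375 with library totals. Since 4 of the 39 tested members had 10 or more counts in only 1 of the lines and so had to differ to be tested, the count of members is a description. At an unadjusted p under 0.05 there were 14 members, against 27% of all genes. The median log2 fold change, resistant over parental, was 0.25 over the tested members and 0.02 over all genes. Both resistant libraries lay above both parental ones for 21 of the 39 tested members and below them for 9, against 30.7% and 29.8% of all genes. The same 4 members enter these tallies and the median, which are descriptions too.

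**Figure D2:**
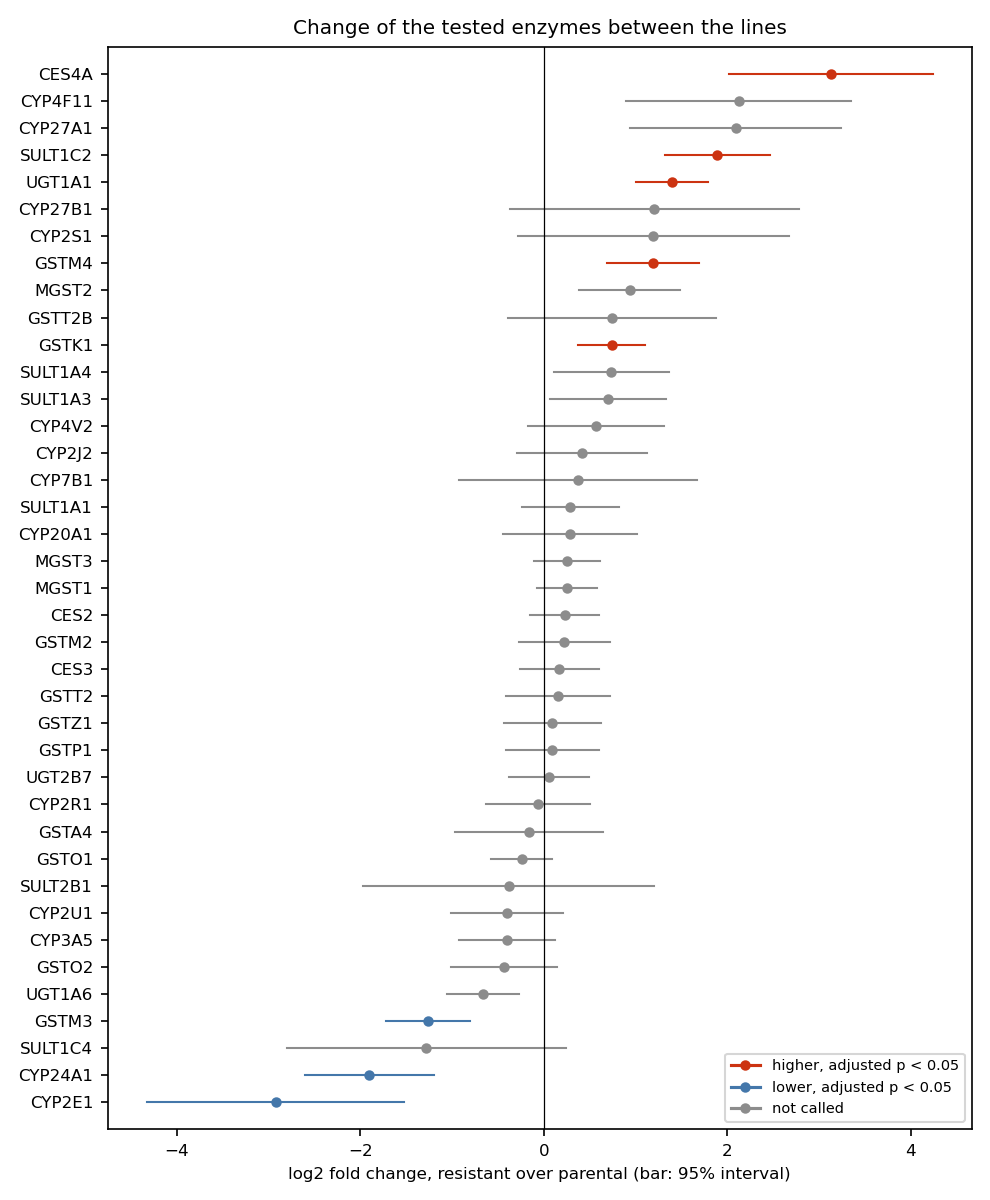
Log2 fold change of each tested member, resistant over parental, with bars for the 95% interval from the fit. Red members were called higher, blue ones lower, and grey ones did not pass; CES4A is at the top with 3.13 and CYP2E1 at the bottom with -2.92.

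With other settings, 7 to 10 members were called against 6.36% of all genes with DESeq2 size factors, 7.04% with library totals, 6.37% with filterByExpr, 5.72% with limma-voom, 4.31% and 3.78% with limma-trend on TPM and 10.4% with DESeq2. It was 6 against 4.83% with no filter on counts, 13 against 14.6% with a replicate block, and 0 against 0.768% at an adjusted p under 0.01. The counts also depended on which library was left out. Without resistant replicate 1, 15 members were called higher and 6 lower while the share over all genes went to 53.3%, and without resistant replicate 2 they were 12 and 6 with 35.7% of all genes. Without parental replicate 1 they were 3 and 0 with 3.08% of all genes, and without parental replicate 2 they were 2 and 1 with 3.13%, the lone parental library being assumed to vary like the resistant pair. The calls of SULT1C2 and CES4A held in each of these 4 fits.

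Of the UGT1A rows 2 of 9 were tested, 1 rose and 1 did not pass. UGT1A1, which conjugates bilirubin, stood at 14.5, 14.3, 38.8 and 37.1 CPM, the read count scaled for library size by TMM, so both resistant libraries were well above both parental ones. It rose by a log2 fold change of 1.40 ± 0.16 (SE; adjusted p = 0.0122), from 14.4 ± 0.188 to 37.9 ± 1.18 CPM (SD, n = 2 per line in this and all such pairs). Without parental replicate 1 or 2 its adjusted p was 0.0520 or 0.0593. UGT1A6, which acts on small planar phenols and was by far the main UGT1A row, stood at 327, 325, 184 and 228 CPM. Both resistant libraries were lower, but its log2 fold change of -0.66 ± 0.16 missed the threshold (adjusted p = 0.0674). It passed in 6 of 14 alternatives, with a log2 fold change from -0.83 to -0.51 over all 14. Its adjusted p was 0.0206 in DESeq2, 0.0340 and 0.0385 in limma-trend on TPM, and 0.0405 with a replicate block. The rest of the 6 were the fits left with 1 resistant library.

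The other 7 UGT1A rows had few counts, and how reads were divided among them differed between the resistant libraries. UGT1A9 had 39 counts in resistant replicate 1 and 0 elsewhere, UGT1A10 had 62 in resistant replicate 2 and 0 elsewhere, and UGT1A8 had 7 in resistant replicate 1 and 0 elsewhere. No one of these rows is therefore a result by itself. Summed, the 7 rows had 5, 7, 54 and 66 counts, and their mean CPM was 7.38 times as high in the resistant line, a description with no test. UGT1A4, UGT1A5 and UGT1A7 had at most 5 counts in a library and UGT1A3 had 0. All 9 UGT1A rows together had 3507, 3509, 3508 and 3482 counts, or 342, 340, 227 and 270.1 CPM, so the locus as a whole was lower in both resistant libraries. UGT1A1 made up 3.07% and 2.91% of UGT1A TPM in the parental and 14.2% and 12.1% in the resistant libraries, and UGT1A6 96.8% and 96.9% against 84.4% and 85.8%. In the UGT2 family, UGT2B7, which conjugates opioids and steroids, stood at 44.8, 51.3, 44.8 and 55.2 CPM. The lines overlapped, and the 95% interval of its log2 fold change ran from -0.38 to 0.49 (adjusted p = 0.861).

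**Figure D3:**
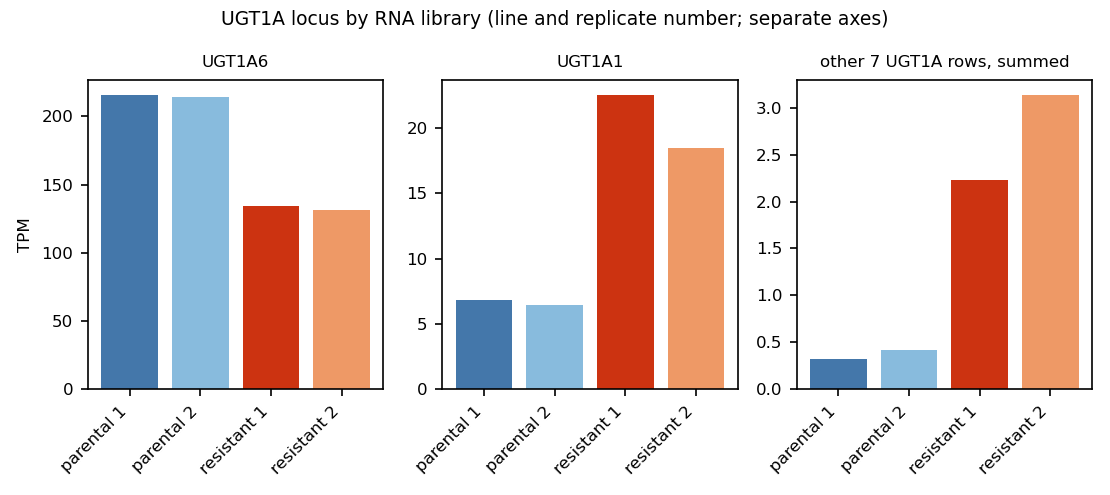
TPM of UGT1A6, of UGT1A1 and of the other 7 UGT1A rows summed in each RNA library, with a separate axis per panel that starts at 0. UGT1A6 bars are lower and UGT1A1 bars higher in both resistant libraries.

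Among glutathione transferases, 14 of 21 were tested, 2 rose, 1 fell and 11 did not pass. GSTK1, the kappa-class enzyme of mitochondria and peroxisomes, stood at 82.1, 81.0, 126 and 147 CPM, with both resistant libraries higher. Its log2 fold change was 0.74 ± 0.15 (adjusted p = 0.0439), a call that ended without parental replicate 1 (adjusted p = 0.499) or 2 (0.518), with limma-voom (0.0502) and with no filter on counts (0.0522). GSTM4, a mu-class enzyme, stood at 11.7, 13.9, 25.8 and 32.7 CPM and rose by a log2 fold change of 1.19 ± 0.21 (adjusted p = 0.0302). GSTM3, at the other end of the same cluster, stood at 25.0, 23.3, 10.7 and 9.31 CPM and fell (log2 fold change -1.27 ± 0.19, adjusted p = 0.0214). In neither gene did the lines overlap. Without parental replicate 1 or 2 the adjusted p was 0.231 or 0.0920 for GSTM4 and 0.111 or 0.0656 for GSTM3.

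The cluster lies on chromosome 1 (GRCh38.p14), with GSTM4 at 109656099-109667727, GSTM2 at 109668057-109683997, and then GSTM1, GSTM5 and GSTM3, the last at 109733937-109741038. GSTM2, between the changed genes, stood at 30.5, 31.2, 30.3 and 42.0 CPM, overlapping between lines (95% interval of its log2 fold change -0.27 to 0.72, adjusted p = 0.513). It passed in 1 of 14 alternatives, the fit without resistant replicate 1. GSTM1 and GSTM5 had 0 counts in all 4 libraries. Mu-class genes are close in sequence, so the division of reads among them is uncertain.

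The most abundant transferases did not pass the test. GSTP1 stood at 865, 859, 749.6 and 1088 CPM, with resistant replicate 1 below and resistant replicate 2 above both parental libraries (95% interval of the log2 fold change -0.41 to 0.60, adjusted p = 0.804). Left with 1 resistant library its log2 fold change took opposite signs, 0.34 without resistant replicate 1 and -0.21 without resistant replicate 2. MGST1, a membrane enzyme that also reduces lipid peroxides, had a log2 fold change of 0.25 (interval -0.07 to 0.58), and MGST3 one of 0.26 (interval -0.11 to 0.62). MGST2, a membrane enzyme that can form leukotriene C4, stood at 11.7, 11.3, 18.4 and 25.6 CPM, higher in both resistant libraries. Its log2 fold change of 0.94 ± 0.23 had an adjusted p of 0.0678, and it passed in 7 of 14 alternatives. Among these were DESeq2 (adjusted p = 0.0291), library totals (0.0463), limma-trend on TPM (0.0432 and 0.0473) and a replicate block (0.00851). The rest of the 7 were the fits left with 1 resistant library. GSTO1, a dehydroascorbate reductase, had a log2 fold change of -0.24 (interval -0.57 to 0.09). The other tested transferases, GSTO2, GSTA4, GSTZ1, GSTT2 and GSTT2B, had log2 fold changes from -0.44 to 0.75. The upper end was GSTT2B, with 6, 9, 20 and 15 counts. GSTT2B reached the minimum count for testing only in the resistant libraries, so it entered the test only by being high there. GSTT2, annotated as a transcribed pseudogene, and GSTT2B are near-identical copies, and together they had 12.8, 12.5, 12.5 and 16.5 CPM, overlapping between lines. GSTA1, GSTA2, GSTA3 and GSTA5 had 0 counts in all 4 libraries. GSTT1 also had 0, but its RefSeq position (chr22:270308-278486) is far from that of GSTT2B (chr22:23957414-23961206). The reference behind the counts is not given, so whether reads could be assigned to GSTT1 is unknown. Its 0 is therefore not read as absence of the transcript.

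Of 13 sulfotransferases 6 were tested, and SULT1C2 was the 1 that rose. SULT1C2, which sulfates small phenols, stood at 3.22, 3.20, 11.9 and 11.9 CPM, and the resistant libraries were close to each other and far above the parental ones. Its log2 fold change was 1.89 ± 0.24 (adjusted p = 0.0135). SULT1C4 of the same chromosome 2 cluster, named after its values were seen, stood at 1.46, 1.26, 0.84 and 0.233 CPM, lower in both resistant libraries (log2 fold change -1.28 ± 0.62, adjusted p = 0.247). It passed in 1 of 14 alternatives, the fit without resistant replicate 1. SULT1A3, which sulfates catecholamines, and its near-identical copy SULT1A4 had log2 fold changes of 0.70 and 0.74 (adjusted p = 0.154 and 0.139). Reads cannot be divided between these copies, and together they had 34.7, 36.5, 44.8 and 71.7 CPM, higher in both resistant libraries. SULT1A3 passed in 2 of 14 alternatives, a replicate block (adjusted p = 0.0492) and the fit without resistant replicate 1. SULT1A4 passed in 1 of 14, the fit without resistant replicate 1. SULT1A1 and SULT2B1 had log2 fold changes of 0.29 and -0.38 and did not pass. SULT1A2 and SULT1B1 each had 1 count in all, and SULT1C3, SULT1E1, SULT2A1, SULT4A1 and SULT6B1 had 0.

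Of 5 carboxylesterases 3 were tested. CES4A, a little-studied member, had 17, 21, 161 and 286 counts, or 1.66, 2.04, 10.4 and 22.2 CPM, and rose by a log2 fold change of 3.13 ± 0.46 (adjusted p = 0.0204), the largest change in size among the 39 tested members. The lines did not overlap, and resistant replicate 2 was well above resistant replicate 1, without which the log2 fold change was 3.58, against 2.48 without resistant replicate 2. CES2, which hydrolyses prodrugs such as irinotecan, is a near neighbour on chromosome 16. It stood at 82.4, 83.0, 106 and 88.4 CPM (95% interval of the log2 fold change -0.15 to 0.61, adjusted p = 0.384). CES3, between them, had a log2 fold change of 0.17 (adjusted p = 0.567). CES1, the main liver carboxylesterase, and CES5A had 0 counts in all 4 libraries.

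Ratios of neighbouring genes within a library do not depend on how libraries are scaled, and 5 were computed as a description. Neighbouring here means of the same locus or gene cluster, with other family members between the genes in some pairs. The pairs were chosen with the changes of these genes known, and each has a gene called higher as its numerator, so that choice favours a higher ratio in the resistant line. The TPM of UGT1A1 over that of UGT1A6 was 0.0317, 0.0301, 0.168 and 0.141, and the mean log2 ratio was 2.32 higher in the resistant line. GSTM4 over GSTM3 went from 0.517 and 0.677 to 2.66 and 3.82, so the order of these genes turned between the lines (2.43 higher on the log2 scale). GSTM4 over GSTM2 was 0.280, 0.327, 0.632 and 0.570. CES4A over CES2 was 0.0357, 0.0431, 0.175 and 0.467, so the resistant libraries differed widely from each other. SULT1C2 over SULT1C4 was 1.05, 0.914, 9.26 and 44.9, the last resting on 3 counts of SULT1C4. An exact permutation test of 2 against 2 libraries cannot go below p = 0.333, so these ratios have no informative test.

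**Figure D4:**
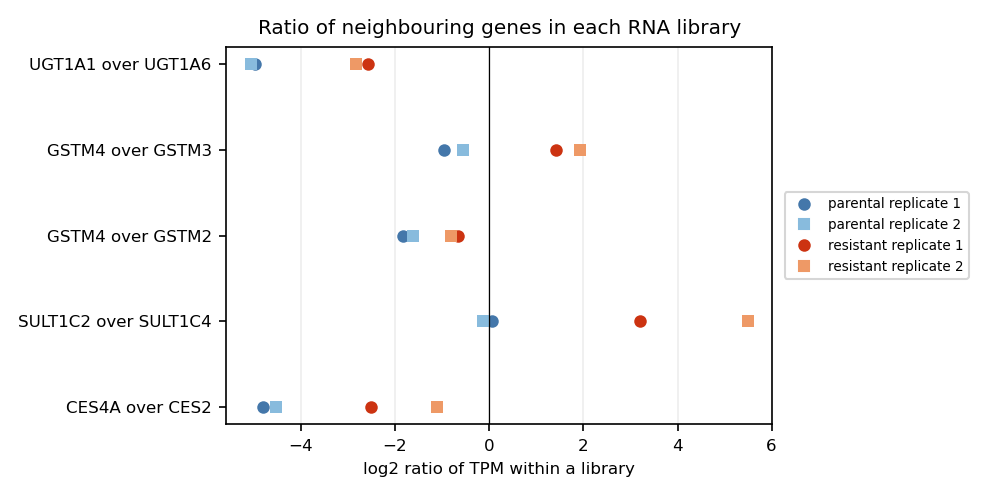
Log2 ratio of the TPM of neighbouring genes in each RNA library, 1 row per pair, with 1 point per library. In all 5 rows both resistant points lie to the right of both parental ones; for GSTM4 over GSTM3 they lie on opposite sides of 0.

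P450s had 52 members, of which 13 were tested, 0 rose with edgeR, 2 fell and 11 did not pass. Both that fell were at low levels. CYP24A1, the vitamin D hydroxylase that inactivates the hormone, had 95, 73, 35 and 27 counts, or 9.26, 7.08, 2.26 and 2.09 CPM. It was lower in both resistant libraries, with a log2 fold change of -1.90 ± 0.29 (adjusted p = 0.0227), and its adjusted p was 0.0853 without parental replicate 1 and 0.0517 and 0.0641 with limma-trend on TPM. CYP27B1, which makes the active hormone, had 6, 2, 16 and 10 counts and a log2 fold change of 1.21 with an interval from -0.37 to 2.78. It reached 10 counts only in the resistant libraries, so it entered the test only by being high there. CYP2R1, the first activating step, overlapped between the lines (interval of its log2 fold change -0.63 to 0.51). The retinoic acid hydroxylases CYP26A1, CYP26B1 and CYP26C1 had at most 8 counts in a library, and CYP27C1 had 0.

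Among the P450s known for drug metabolism, 2 of 16 were tested. CYP2E1, which oxidizes ethanol and small solvents, had 15, 14, 2 and 3 counts and was called lower, with a log2 fold change of -2.92 ± 0.58 (adjusted p = 0.0415). It reached 10 counts only in the parental libraries, so it was tested only because it was high there, and the call is a description. With so few counts that call was not firm: the adjusted p was 0.0690 with DESeq2, 0.0687 and 0.0701 with limma-trend on TPM, 0.0644 with no filter on counts, and 0.0768 and 0.0504 without parental replicate 1 and 2. CYP3A5 had 117, 109, 136 and 101 counts, or 11.4, 10.6, 8.78 and 7.84 CPM, lower in both resistant libraries, but its log2 fold change of -0.40 (interval -0.92 to 0.12, adjusted p = 0.284) did not pass. CYP3A4, the P450 chiefly known to oxidize cabozantinib, had 0 counts in all 4 libraries, where 3 counts would correspond to 0.194 to 0.292 CPM, and so had CYP3A43. CYP3A7 had 0, 0, 1 and 3 counts. CYP1A2, CYP2A7, CYP2A13, CYP2B6, CYP2C19 and CYP2F1 also had 0, and CYP2A6, CYP2C8, CYP2C18 and CYP2D6 had at most 8 counts in a library.

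Fatty acid, sterol and steroid P450s gave 0 calls among 6 tested with edgeR, 2 of them at an unadjusted p under 0.05. Those were CYP27A1, a mitochondrial sterol hydroxylase, and CYP4F11, a fatty acid hydroxylase, both named after their values were seen. CYP27A1 had 11, 5, 59 and 37 counts, higher in both resistant libraries (log2 fold change 2.09 ± 0.47, adjusted p = 0.0566). CYP4F11 had 4, 7, 44 and 24 counts, (log2 fold change 2.12 ± 0.50, adjusted p = 0.0642), and reached 10 only in the resistant libraries, so it entered the test only by being high there. The adjusted p of CYP27A1 ranged from 0.00129 to 0.308 over the alternatives, with DESeq2 at 0.0361, and that of CYP4F11 from 0.00675 to 0.338. CYP2J2, an arachidonic acid epoxygenase, CYP2U1, CYP4V2 and CYP7B1, an oxysterol hydroxylase, had log2 fold changes of 0.42, -0.40, 0.57 and 0.37. CYP7B1 stood at 3.22, 3.10, 6.07 and 2.02 CPM, on both sides of the parental level.

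Of the remaining P450s, CYP20A1 and CYP2S1 were tested and did not pass, with log2 fold changes of 0.29 and 1.19. CYP39A1, CYP46A1, CYP17A1, CYP19A1, CYP21A2, CYP2W1 and CYP4X1 had at most 7 counts in a library. CYP4A11, CYP4A22, CYP4B1, CYP4F2, CYP4F3, CYP4F12, CYP4F22, CYP7A1, CYP8B1, CYP11A1, CYP11B1, CYP11B2, CYP4Z1 and CYP4F31P had 0 in all 4. In all, 44 members had 0 counts throughout and 27 had counts but were not tested. Just inside the limit for testing were CYP27B1, with a second highest count of 10, and SULT1C4 with 13, and just outside were CYP2D6 and CYP2W1, each with 6.

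Genes that regulate or supply these enzymes were taken from lists chosen by function. Of 21 tested nuclear receptors and other regulators, 3 rose, 1 fell and 17 did not pass, against 6.4% of all genes called. CEBPA, a transcription factor of liver and fat cells, rose from 2.53 ± 0.696 to 12.6 ± 0.76 CPM (log2 fold change 2.32, adjusted p = 0.0129). NR1H3, the oxysterol receptor LXR alpha, rose from 20.8 ± 0.752 to 35.9 ± 0.15 CPM (0.79, adjusted p = 0.0432), but its adjusted p was 0.534 or 0.464 without parental replicate 1 or 2. AHR, the aryl hydrocarbon receptor, fell from 73.5 ± 1.74 to 26.1 ± 6.45 CPM (-1.49, adjusted p = 0.0181). The drug sensors NR1I2 and NR1I3, known as PXR and CAR, had at most 4 and 8 counts in a library, and HNF4A, a liver and kidney regulator of many P450s, had 0 in all 4 (these 3 were named after their values were seen). CEBPB was the other regulator that rose (0.79, adjusted p = 0.0317).

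Of 14 tested genes that pass electrons to P450s, bind them or build their heme, 0 passed in either direction with edgeR, and so did 0 of 18 that supply cofactors for conjugation. At 6.4% of all genes called, lists of this size would hold about 1 call, so the counts of 0 are near the background. The most abundant of the first list, the reductase CYB5R3 and the heme-binding P450 partner PGRMC1, had log2 fold changes of -0.15 and -0.08, the latter 0.0034 with library totals. The glutathione synthetase GSS stood at 105 ± 0.116 and 159 ± 9.54 CPM (0.61, adjusted p = 0.0583), and the sulfate donor transporter SLC35B2 had a log2 fold change of -0.19.

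Of 21 tested oxidizing, reducing and hydrolysing enzymes outside the named families, 5 rose, 2 fell and 14 did not pass. Of all genes 6.4% were called. The epoxide hydrolases EPHX1 and EPHX2 both rose, EPHX1 from 78.6 ± 1.72 to 187 ± 7.04 CPM (log2 fold change 1.25, adjusted p = 0.0104) and EPHX2 from 5.10 ± 0.326 to 11.8 ± 0.971 CPM (1.21, adjusted p = 0.0379). The aldehyde oxidase AOX1 fell from 42.7 ± 2.05 to 7.80 ± 5.22 CPM (-2.43, adjusted p = 0.0319) and ALDH1A3, which makes retinoic acid, from 16.7 ± 0.265 to 4.74 ± 2.43 CPM (-1.80, adjusted p = 0.0434). Without resistant replicate 1 the log2 fold change was -3.37 for AOX1 and -2.46 for ALDH1A3, and with library totals the adjusted p of ALDH1A3 was 0.0507. CBR1, ALDH2 and BCHE also rose. Without parental replicate 1 or 2 the adjusted p was 0.0900 or 0.0732 for EPHX1 and 0.310 or 0.223 for EPHX2.

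Of 19 tested other conjugating and deconjugating enzymes, 2 rose, 0 fell and 17 did not pass, against 6.4% of all genes called. HNMT, the histamine methyltransferase, rose from 7.29 ± 0.525 to 17.1 ± 1.09 CPM (1.23, adjusted p = 0.0278) and ANPEP, a brush border peptidase that trims glutathione conjugates, from 145 ± 5.34 to 230.1 ± 3.07 CPM (0.66, adjusted p = 0.0442). Neither call held without parental replicate 1 (adjusted p = 0.231 and 0.638) or 2 (0.144 and 0.566). Of 9 tested efflux pumps 1 fell and 8 did not pass, against 6.4% of all genes called. The 1 that fell was ABCB1, the drug pump P-glycoprotein, with a log2 fold change of -2.09 (adjusted p = 0.0057). With limma-trend on TPM the calls of NR1H3, AHR, EPHX2, AOX1, ALDH1A3, HNMT, ANPEP, CDH16 and CDH2 ended, at adjusted p from 0.0532 to 0.130.

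**Figure D5:**
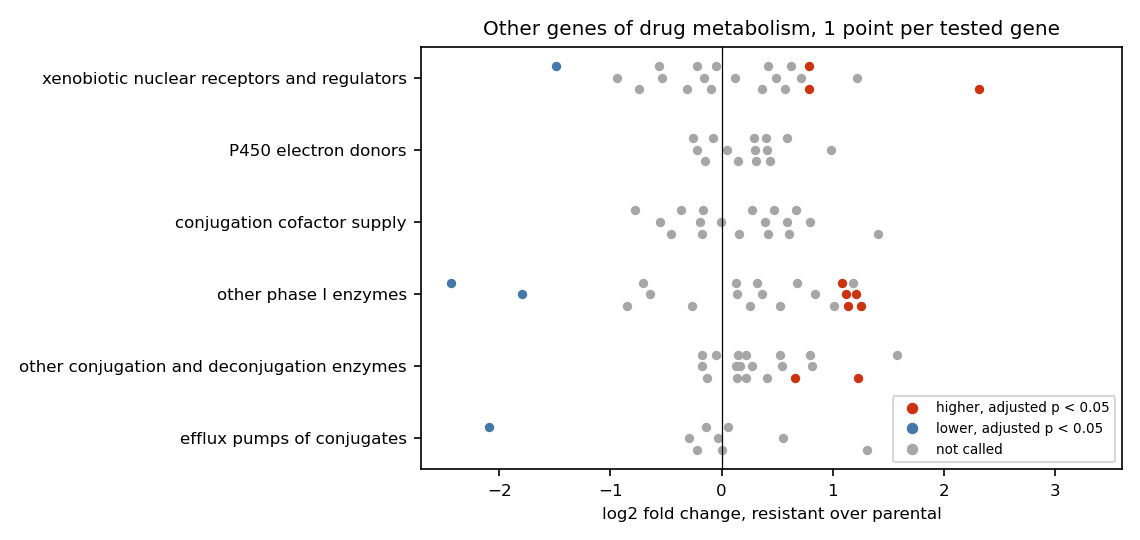
Log2 fold change of each tested gene of the 6 functional lists, resistant over parental, with points spread vertically within a list only to separate them. Red points were called higher and blue ones lower; the lists of electron donors and cofactor supply hold grey points only, with 6.4% of all genes called.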

How the data were processed

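RNA-seq of 4 libraries, 2 per line, was analysed, and samples were grouped by their titles. The deposited tables give RSEM estimated counts and TPM per gene symbol. The submitters' processing notes name STAR, RSEM, DESeq2 1.40.2, GRCh38 and hg19, without roles. The annotation behind the counts is, in the sources used here, not given. The estimated counts (3.16% of values not whole) were rounded. Genes with 10 or more counts in at least 2 libraries were scaled by TMM and tested in edgeR 4.0.16 (R 4.3.3) by quasi-likelihood, with a single term for the cell line. P-values were adjusted over all genes by Benjamini-Hochberg, and 0.05 was the threshold. Standard errors and 95% intervals come from that fit. CPM are counts scaled by TMM library sizes. TPM are as deposited by the authors.

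The parental libraries differed by more than sampling noise and counted as 2 replicates. The 28 date-like symbols stayed in the fit. H3K27ac peaks were not used here, since their positions read as hg19 and the gene tables at hand are GRCh38.p14. The 4 inputs were not analysed here. The members, gene lists and tests were chosen with earlier results of these data known. Named members were all those called and the 10 most abundant others by TPM, and from each list up to 2 rises and 2 falls or, where none passed, the 2 most abundant. CYP27A1, CYP4F11, CYP3A5, SULT1C4, SULT1A4, CES3, PAX8, PAX2, LRP2, CD3E, CDH5, APOB, PTPRC, LUM, CD68, COL1A1, PDGFRB, ACTA2, ALB, CEBPB, CBR1, ALDH2, BCHE, other tested members given only by fold change and members named with counts only were added after their values were seen. All 110 members matched RefSeq gene names, and 1 member that was not tested is not reported here by name. Alternatives were DESeq2 size factors, library totals, filterByExpr, no filter beyond 1 count, DESeq2 1.42.0's Wald test, limma-voom and limma-trend (limma 3.58.1) on log2(TPM + 1) or log2(TPM + 0.1) (genes reaching 1 TPM in 2 libraries), a replicate block, the stricter threshold of 0.01, and fits that omit each library in turn.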

Additional observations from a re-analysis of the deposited data

How the results depend on the processing

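The counts of 5 members higher and 3 lower stayed within 1.5 times under DESeq2 size factors, library totals, filterByExpr, no filter beyond 1 count, DESeq2's Wald test, limma-voom and limma-trend on TPM (4 to 7 higher and 2 to 3 lower). The replicate numbers are not said to pair libraries, and deviations of same-numbered libraries correlated at -0.04 over 12892 genes. With a replicate block 9 members were higher and 1884 genes were called over all, against 825. At an adjusted p under 0.01, 0 members were higher and 0 lower with edgeR, while 14 had an unadjusted p under 0.05, and 99 genes were called. DESeq2 called 1343 genes and limma-trend on TPM 525 and 460. With each library left out in turn, members called higher ranged from 2 to 15, members called lower from 0 to 6, and all genes called from 397 to 6866; the causes were not tested. With library totals the split over all genes turned from 382 higher and 443 lower to 532 and 375. Of the named genes, 4 changed sign in an alternative, none of them called in the main test: PGRMC1 (0.0034 with library totals), UGT2B7 (-0.0497 and -0.0505 with limma-trend on TPM, and -0.11 to 0.20 with a library left out), GSTM2 (-0.033 to 0.45 with a library left out) and GSTP1 (-0.21 to 0.34 with a library left out). Depth limits members with few counts: CYP2E1, CYP4F11, CYP27A1 and CYP27B1 each had under 20 counts in both libraries of at least 1 line.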

Other observations

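Some members too low to be tested had counts in both libraries of 1 line and 0 in the other. UGT2A3 had 0, 0, 5 and 4 counts in parental replicates 1 and 2 and resistant replicates 1 and 2, UGT2B4 had 0, 0, 6 and 5, CYP17A1 had 0, 0, 4 and 2, CYP2A6 and CYP3A7 each had 0, 0, 1 and 3, and CYP2C8 had 4, 3, 0 and 0. These members were picked after their values were seen, have no test, and at this depth their differences are within a few reads. UGT2A3 and UGT2B4 lie in the UGT2 cluster of chromosome 4 with UGT2B7. The other UGT2 rows of that cluster, UGT2A1, UGT2A2, UGT2B10, UGT2B15, UGT2B17 and UGT2B28, had 0 counts in all 4 libraries, and UGT2B11 had 1 count in all.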
